A study of Mus musculus with 13 samples.

Results

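Cytochrome P450 genes were described in 10 mouse mammary libraries, 6 from tumours and 4 from whole glands. Members were all gene symbols made of Cyp, a family number, a subfamily letter and a gene number, without the sterol demethylase Cyp51 and without pseudogenes, which gave 74 of the 38279 symbols in the count table. Of these, 27 had enough counts to be tested and 23 of the 27 averaged at least 1 CPM (counts scaled to library size) over the 10 libraries. The 6 tumours came from Cre-positive mice in which Fbxw7, the substrate-recognition subunit of a ubiquitin ligase, was excised, and the 4 glands came from Cre-negative mice labelled WT. All animals, controls included, were mated at 12 weeks of age, which induced the excision in Cre-positive mice. The promoter that drives Cre is not named in the labels. Glands 1 to 3 were taken at 20 weeks and gland 4 at 40 weeks, and tumours 1 to 6 at 25, 32, 39, 19, 53 and 25 weeks. Genotype and tumour state differ together between the groups and cannot be told apart. The age ranges overlap, but only tumour 4 was as young as glands 1 to 3. A further 3 samples of purified epithelium were not analysed here.

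Cytochrome P450 enzymes are haem proteins that insert an oxygen atom into their substrates, using electrons that most of them receive from the reductase Por. Some clear drugs and solvents, while others make or remove fatty acid, sterol, vitamin D, steroid and retinoid signals. Most are best known from liver, but whole mammary gland is largely fat tissue, and Cyp2e1 and several fatty acid hydroxylases are known from adipose tissue too.

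Of the 74 genes, 58 had a promoter entry in RefSeq (GRCm38.p6). The 250 bases before the annotated start are shown for the most abundant gene in glands, Cyp2e1, and for the member that was higher in tumours, Cyp26a1, because the results turn on these genes. The Cyp2e1 window lies at chr7:140763569-140763818 and the Cyp26a1 window at chr19:37697558-37697807, both on the plus strand. Capitals mark TATAAA in Cyp2e1 and, in Cyp26a1, 2 copies of AGTTCA with any 5 bases between them, read on the minus strand, a direct repeat of the kind bound by retinoic acid receptors.

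Cyp2e1: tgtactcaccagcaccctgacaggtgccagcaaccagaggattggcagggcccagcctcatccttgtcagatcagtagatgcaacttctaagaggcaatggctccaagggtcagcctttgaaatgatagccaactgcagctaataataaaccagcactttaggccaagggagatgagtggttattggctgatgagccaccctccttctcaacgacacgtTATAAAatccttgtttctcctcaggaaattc

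Cyp26a1: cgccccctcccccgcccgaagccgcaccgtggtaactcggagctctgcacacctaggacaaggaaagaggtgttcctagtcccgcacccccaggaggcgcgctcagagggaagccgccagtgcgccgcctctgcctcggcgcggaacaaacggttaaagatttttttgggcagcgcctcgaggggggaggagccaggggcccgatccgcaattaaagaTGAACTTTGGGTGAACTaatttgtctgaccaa

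The Cyp26a1 repeat spans 32 to 16 bases before the start, and Cyp26a1 was the only one of the 58 genes with it. Over all 32851 promoters of this length, 7 (0.0213%) held that repeat on either strand. Its half-site AGTTCA alone, which also lies inside the repeat, was found in 11.8% of all promoters and in 10 of the 58 genes. The half-site AGGTCA was found in 14.0% of all promoters and in 14 of the 58 genes. Repeats that hold AGGTCA in either half-site were not searched, so the repeat counts cover the AGTTCA spelling only. That spelling is the one Cyp26a1 itself carries. Its being the only member with the repeat follows in part from this choice and is not read as a result. TATAAA lies 31 to 26 bases before the Cyp2e1 start and was found in 12.4% of all promoters and in 21 of the 58 genes. The dioxin-response core TNGCGTG was in 4.10% of all promoters and in none of the 58. These are matches of letters only.

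Library totals ran from 13723065 to 48353114 counts. An adipocyte index, the mean log2 CPM of the adipocyte hormone Adipoq and the lipid droplet protein Plin1, was 10.7, 9.92, 9.89 and 6.98 in glands 1 to 4. In tumours 1 to 6 it was 4.55, -0.64, -1.0, -0.77, 0.66 and 5.63, so tumours 1 and 6 stood apart from the other tumours. The same 2 tumours held salivary gland transcripts, with 51.0% and 18.7% of their counts from 13 salivary markers, against 0.00199% to 0.0521% in the other 8 libraries. Gland 4 had 7.07% of its counts from skeletal muscle markers. Of 10 luminal epithelial markers, 8 rose in tumours.

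The summed P450 level was 2847, 1808, 1492 and 354 CPM in glands 1 to 4. In the tumours the sum was lowest at 144 CPM (tumour 4) and highest at 397 CPM (tumour 1). Glands 1 to 3 lay above every tumour, while gland 4 lay below tumour 1. Cyp2e1, which oxidises ethanol, acetone and small solvents, supplied 86.7%, 84.3%, 81.4% and 58.2% of the P450 counts in glands 1 to 4. Its share was 3.37% in tumour 1, 3.85% in tumour 6 and 0.0251% to 0.361% in tumours 2 to 5. Without Cyp2e1 the sum was 380, 284, 277 and 148 CPM in the glands and 383, 216, 197, 144, 313 and 255 CPM in tumours 1 to 6. These sums overlapped between the groups, but tumours 2, 3, 4 and 6 still lay below glands 1 to 3. Of the sums in the 2 higher tumours, Cyp2f2 supplied 156 CPM in tumour 1 and Cyp2a5, described below, 165 CPM in tumour 5. The gap in summed level between glands 1 to 3 and the tumours thus lay mainly in Cyp2e1.

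**Figure D1:**
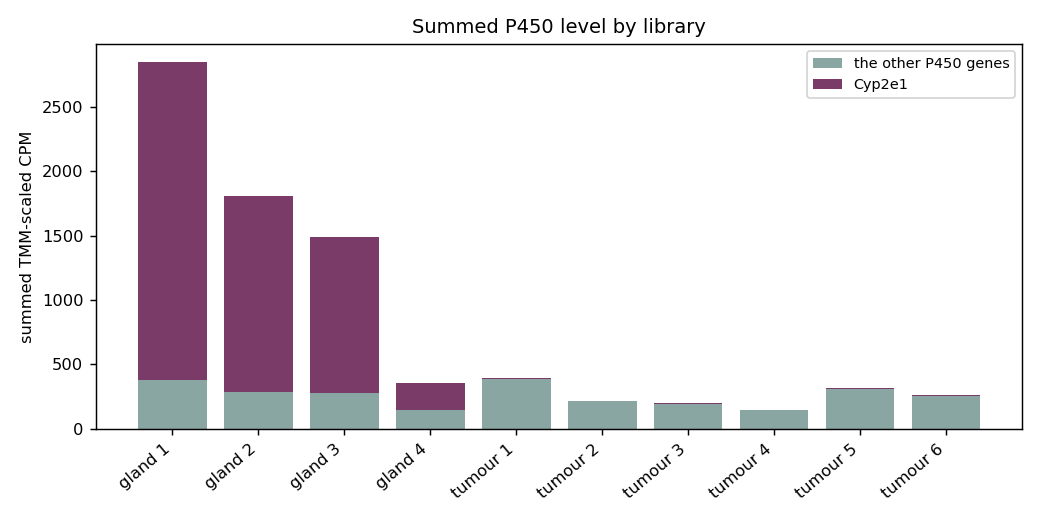
Summed TMM-scaled CPM of the P450 genes (y axis) in each of the 10 libraries (x axis), split into Cyp2e1 and all other members. Cyp2e1 makes up most of the bar in each gland and almost none in the tumours.

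Per kilobase of the longest coding transcript, Cyp2e1 stood at 738 CPM in the glands, followed by Cyp2f2 at 31.2 and Cyp4v3 at 15.7. In the tumours the order of the tested members was led by Cyp2f2 at 24.6 CPM per kilobase and Cyp20a1 at 9.36, with Cyp2e1 at 2.33. The untested Cyp2a5, described below, averaged 13.8 CPM per kilobase in the tumours, nearly all of it from tumour 5. These are means over libraries that differ widely, so neighbours in either order may not differ beyond their spread.

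Of the 27 members tested, 5 differed between tumours and glands, where 15.1% of 20101 genes did. Of these, 1 rose in tumours (Cyp26a1), where 6.89% of genes rose, and it passed the filter on low counts only through the tumours. Cyp2e1, Cyp3a57, Cyp2j9 and Cyp4v3 fell, 4 of 27, where 8.19% of genes fell (adjusted p below 0.05 in the edgeR test over all genes). The groups did not overlap for Cyp26a1 on the higher side, where 6.54% of genes did not overlap. On the lower side 3 members did not overlap, where the share of genes was 7.50%. With counts this small, the shares were not read as a property of the family. The median log2 fold change was -0.06 over the 27 members and 0.17 over all genes tested. With age as a covariate 4 of the 5 were called, all but Cyp4v3. Leaving out gland 1 or gland 2 lowered the count of 5 called members to 3 in each case, while the genes called in the whole table fell from 3030 to 1053 and 1496. Leaving out gland 4 raised the members' count to 8, while that of the whole table was 2419.

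**Figure D2:**
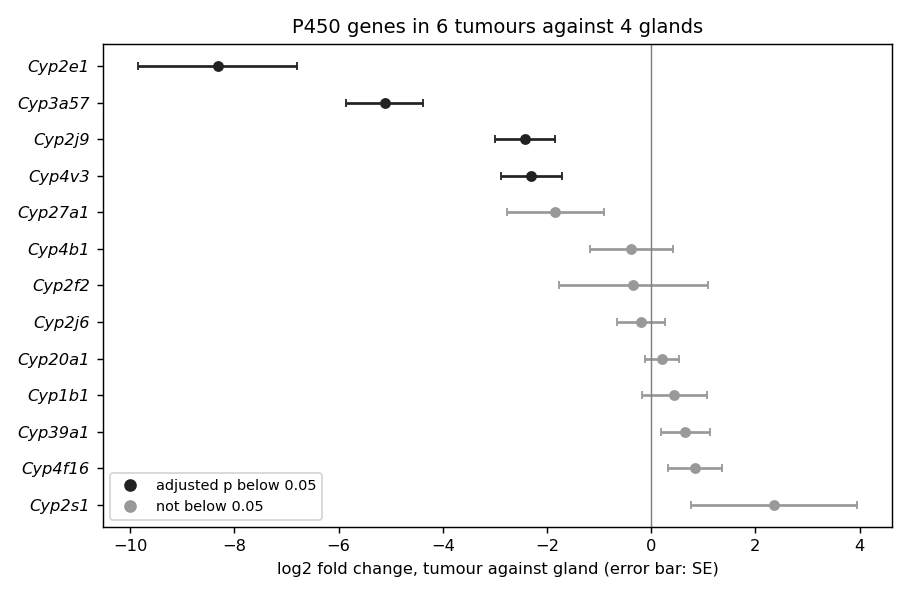
Log2 fold change, tumour against gland (x axis, error bar SE, edgeR), for 13 P450 genes given with full values, of which dark points have an adjusted p below 0.05. Cyp2e1, Cyp3a57, Cyp2j9 and Cyp4v3 lie below 0 as dark points, and Cyp26a1 is not drawn because it had no gland count.

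Among the enzymes of drug and solvent metabolism, Cyp2e1 was at 2468, 1524, 1215 and 206 CPM in glands 1 to 4. In the tumours its lowest level was 0.0495 CPM, its median 0.825 and its highest 13.4 (tumour 1), with 10.2 CPM in tumour 6. Every gland lay above every tumour, and the lowest gland was the one with muscle transcripts. The log2 fold change was -8.32 ± 1.52 (SE, adjusted p = 0.00851, edgeR, 4 glands and 6 tumours). Because these are bulk samples, fewer cells of a type and less RNA per cell cannot be told apart, here and for every gene that follows. Cyp2e1 is abundant in liver, and of the hepatocyte markers Alb was at 13.2, 31.5, 44.0 and 0.0636 CPM in the glands while Apoa2 was at 0 in all of them. The 10 hepatocyte markers summed to 1.59 to 48.3 CPM in the glands and 0.198 to 18.9 CPM in the tumours, and their part in the Cyp2e1 result was not tested.

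Cyp3a57, from the subfamily that clears many drugs and steroids, was at 7.96, 6.96, 4.40 and 3.24 CPM in the glands. The tumours ranged from 0 (tumour 1) to 0.307 CPM, with a median of 0.153. All glands lay above all tumours, and the log2 fold change was -5.11 ± 0.74 (SE, adjusted p = 0.00381, edgeR). Of its 31-base words, 22.6% also occur in other genes, chiefly Cyp3a59 with 17.6%, so part of its counts depends on how shared reads were divided.

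Cyp2f2, which activates naphthalene and is best known from airway club cells, was at 96.0, 68.1, 68.1 and 0.382 CPM in glands 1 to 4. Across the tumours it ran from 0.198 to 156 CPM, with a median of 24.8, and the highest values were in tumours 1 (156) and 6 (68.9). Both groups held libraries near 0, and the log2 fold change of -0.34 ± 1.43 (SE) did not pass the test (adjusted p = 0.881, edgeR). Against gland 4 alone it was 6.82. Cyp2d22 ranged from 6.29 to 9.02 CPM in glands and 1.90 to 13.4 CPM in tumours. Cyp2b10, a target of the xenobiotic receptor Nr1i3, ranged from 0.445 to 2.54 CPM in glands and from 0 to 19.3 CPM in tumours, with its highest value in tumour 1. Neither Cyp2d22 nor Cyp2b10 passed the test.

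Members of the Cyp2j subfamily turn arachidonic acid into epoxides. Cyp2j9 was at 6.16, 4.51, 4.34 and 2.10 CPM in the glands, and in the tumours at a lowest of 0.198, a median of 0.810 and a highest of 1.36 CPM. The groups did not overlap, and Cyp2j9 fell by 2.42 ± 0.57 on the log2 scale (SE, adjusted p = 0.0207, edgeR). The call was lost without gland 1 (adjusted p = 0.0667) or gland 2 (0.0519), and over 21 alternatives the adjusted p ran from 0.000181 (DESeq2) to 0.770 (adipocyte index as covariate). Cyp2j6 was at 24.2, 16.9, 16.1 and 9.47 CPM in the glands and between 5.61 and 31.3 CPM in the tumours, with a median of 12.8. Its groups overlapped and its log2 fold change of -0.20 ± 0.46 (SE) did not pass (adjusted p = 0.776, edgeR).

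Fatty acid hydroxylases made up 8 of the 23 well-measured genes. Cyp4v3, which hydroxylates medium-chain fatty acids, was at 89.2, 70.4, 70.3 and 8.65 CPM in glands 1 to 4. In the tumours it ranged from 4.84 to 22.2 CPM with a median of 11.1, so glands 1 to 3 lay above every tumour and gland 4 lay among the tumours. Cyp4v3 fell by 2.30 ± 0.59 on the log2 scale (SE, adjusted p = 0.0265, edgeR). Leaving out tumour 4 or any of glands 1 to 3 ended the call, with an adjusted p of up to 0.0851, as did limma-voom (0.0524), age as a covariate (0.0849) and leaving out tumours 1 and 6 together (0.0547). Over all alternatives the adjusted p ran from 0.00375 with DESeq2 to 0.635 with the adipocyte index as covariate and 0.822 against gland 4 alone, where the log2 difference was 0.58 and the single gland was assumed to vary like the tumours.

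Cyp4b1, which acts on medium-chain fatty acids and plant toxins, was at 20.0, 14.0, 12.8 and 12.8 CPM in the glands and ran from 0.643 to 34.0 CPM in the tumours, with a median of 8.10. The glands were close to each other while the tumours spread on both sides of them, and the log2 fold change was -0.38 ± 0.79 (SE, adjusted p = 0.753, edgeR). Cyp4f16, from the subfamily that inactivates leukotrienes, was at 9.59, 7.45, 7.80 and 3.43 CPM in the glands and 4.04 to 28.0 CPM in the tumours, with a median of 10.9. The groups overlapped, and the log2 fold change was 0.84 ± 0.51 (SE, adjusted p = 0.269, edgeR). Of the Cyp4f16 words, 26.7% also occur in other genes, 23.1% in Cyp4f37. The other members of this class overlapped as well: Cyp4f13 (3.94 to 10.6 CPM in glands, 2.88 to 13.9 in tumours), Cyp2u1 (4.87 to 11.8 and 1.53 to 18.7), Cyp4f17 (2.03 to 6.39 and 2.18 to 4.11), Cyp4x1 (0.713 to 2.10 and 0.717 to 5.96) and Cyp4f18 (0 to 5.01 and 0.0685 to 3.59).

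The sterol enzymes did not pass the test. Cyp27a1, a mitochondrial enzyme that oxidises the sterol side chain, was at 20.3, 12.5, 10.9 and 20.9 CPM in the glands. The tumours ran from 0.408 to 13.8 CPM with a median of 2.14, and only tumour 1 reached the gland values. The log2 fold change was -1.84 ± 0.93 (SE, adjusted p = 0.188, edgeR), while limma-voom gave -3.23 (adjusted p = 0.0262), with a range over alternatives of 0.0262 to 0.930. Cyp39a1, an oxysterol hydroxylase, was at 8.13, 5.40, 5.07 and 12.1 CPM in the glands and 4.22 to 24.9 CPM in the tumours, with a median of 10.4. Its log2 fold change of 0.66 ± 0.47 (SE) did not pass (adjusted p = 0.336, edgeR). Cyp7b1, another oxysterol hydroxylase, ranged from 0.699 to 1.17 CPM in glands and 0.223 to 5.13 CPM in tumours.

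Cyp1b1, an oestradiol and aromatic hydrocarbon hydroxylase induced through the aryl hydrocarbon receptor, was at 24.0, 17.8, 15.7 and 24.3 CPM in the glands. In the tumours it was between 4.21 and 53.0 CPM with a median of 24.6, so tumours lay both below and above all glands. The log2 fold change was 0.44 ± 0.62 (SE, adjusted p = 0.638, edgeR). The receptor gene Ahr averaged 7.66 ± 1.17 CPM in the 4 glands and 28.1 ± 11.2 CPM in the 6 tumours (SD) and rose by 1.87 ± 0.38 on the log2 scale (SE, adjusted p = 0.0124, edgeR).

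The substrates of Cyp20a1 and Cyp2s1 are little known. Cyp20a1 was at 24.3, 17.9, 19.8 and 10.1 CPM in the glands and 14.1 to 33.1 CPM in the tumours, with a median of 19.2. It had the smallest standard error of the 14 genes with full values, with tumours 0.21 ± 0.32 above glands on the log2 scale (SE, adjusted p = 0.671, edgeR). Cyp2s1, known from epithelial linings, was at 1.48, 2.43, 1.50 and 0.0636 CPM in the glands. In tumours 1 to 6 it was at 36.5, 0.393, 0.223, 0.121, 0.781 and 4.82 CPM, so the 2 tumours with salivary transcripts were the highest libraries and the other 4 lay below glands 1 to 3. The log2 fold change of 2.35 ± 1.59 (SE) did not pass (adjusted p = 0.312, edgeR) and was -1.88 without tumours 1 and 6.

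Cyp26a1 and Cyp26b1 break down retinoic acid, and Cyp26a1 is a well-known target of the retinoic acid receptors. Cyp26a1 had no count in any gland. In tumours 1 to 6 it was at 0.480, 5.66, 3.04, 0.104, 0.837 and 2.96 CPM, so every tumour had counts, and 56.6% of its 661 tumour counts came from tumour 2. Set against a floor of 3 counts over the gland group, the pooled tumours were at least 109-fold higher, and at least 62.8-fold higher without tumour 2. Counting error alone is covered by these bounds. The adjusted p was 0.0162 (edgeR), but the gene entered the test only through the tumours in which it was high, so this p is no independent support. Without tumour 2, 3, 5 or 6, or without tumours 1 and 6 together, the gene had too few counted libraries to be fitted. Over the alternatives in which it was fitted the adjusted p ran from 4.62e-07 with DESeq2 to 0.195 with the adipocyte index as covariate and 0.398 against gland 4 alone.

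Cyp26b1 ranged from 3.17 to 8.14 CPM in the glands and 1.37 to 25.6 CPM in the tumours, and it did not pass the test. Among other retinoid genes, Crabp2, which carries retinoic acid to the nucleus (log2 fold change 3.88 ± 0.79, adjusted p = 0.0119), and the retinol dehydrogenase Rdh10 (2.10 ± 0.54, adjusted p = 0.0279; edgeR, SE) rose. The retinaldehyde dehydrogenase Aldh1a1 fell by 4.39 ± 0.77 (adjusted p = 0.00749) and the serum retinol carrier Rbp4, also made by fat cells, fell by 6.95 ± 1.31 (adjusted p = 0.00924; edgeR, SE).

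**Figure D3:**
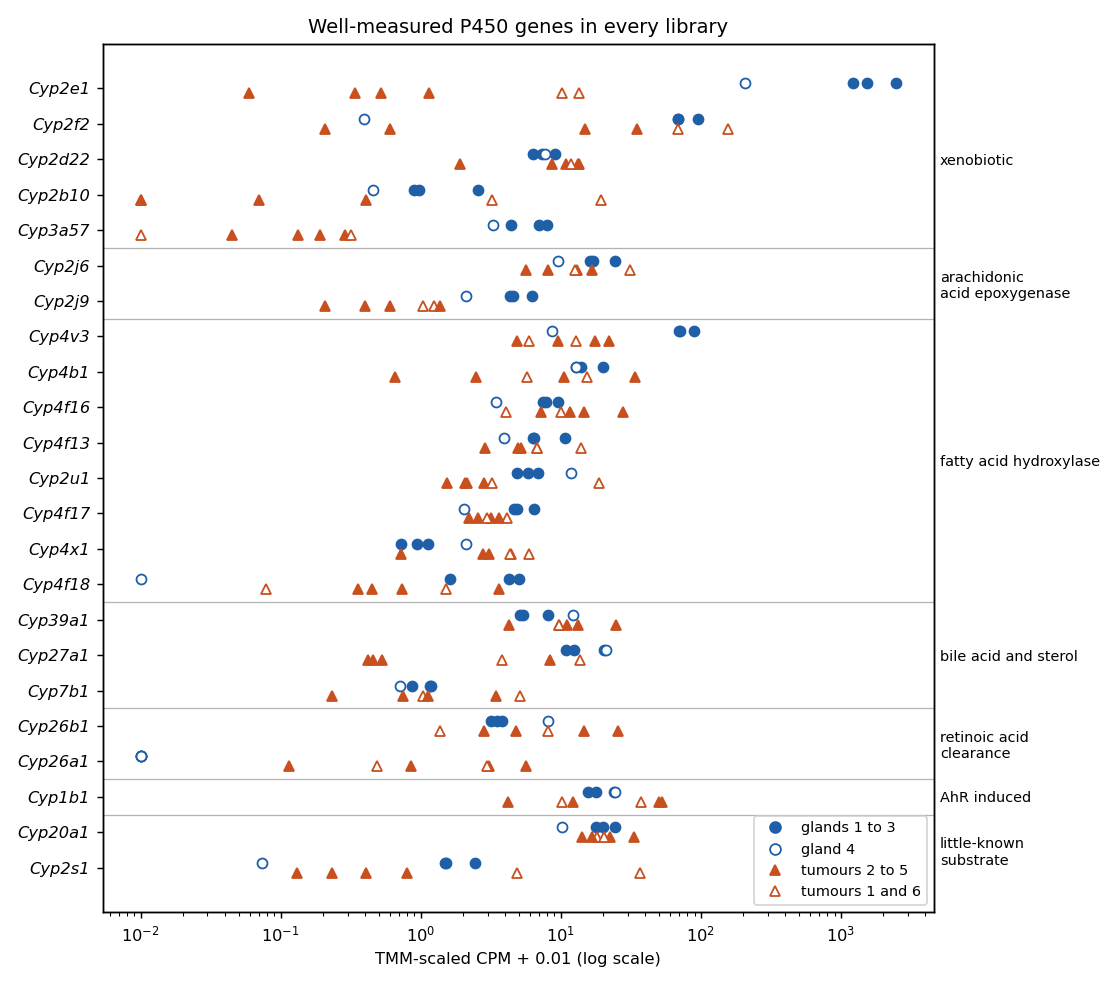
TMM-scaled CPM plus 0.01 on a log axis (x axis) of the 23 well-measured P450 genes (y axis, grouped by role), with 1 point per library. Cyp2e1, Cyp3a57 and Cyp2j9 are separated between glands (circles) and tumours (triangles), Cyp26a1 is at 0 in the glands, and most other genes overlap.

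The relation to adipocyte content was tested as the slope on the adipocyte index in a model that also held the group, so that the difference between glands and tumours did not count. Of the 27 members, 2 (Cyp2e1 and Cyp2s1) had a slope above 0 that passed the test, where 1.85% of genes did, or 1.96% in either direction, and no member had a slope below 0 that passed. At an unadjusted p below 0.05, 7 of 27 had a slope above 0, where 10.2% of genes did. The median slope was 0.17 log2 units per unit of the index over the 27 members and close to 0 over all genes.

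Cyp2e1 had a slope of 0.91 ± 0.11 (SE, adjusted p = 0.00381, edgeR), close to 1 doubling for each doubling of Adipoq and Plin1. Per Adipoq count there were 1.05, 1.15, 0.844 and 0.932 Cyp2e1 counts in glands 1 to 4. Gland 4, with the lowest Cyp2e1 level of the glands, lay within the range of the others in this ratio. Per Plin1 count the glands had 2.08, 2.17, 1.95 and 2.87 Cyp2e1 counts, with gland 4 the highest, and the 6 tumours had 0.0556 to 0.968, all below the glands. In the tumours with the most Adipoq the ratio to Adipoq was lower than in the glands, at 0.428 in tumour 1 (95% exact interval 0.360 to 0.507) and 0.135 in tumour 6 (0.120 to 0.150). Tumours 2 to 5 had 10 to 111 Adipoq counts and lay on both sides of the glands. The ratio was 1.89 in tumour 2 (1.04 to 3.55) and 1.36 in tumour 4 (0.645 to 2.93), above every gland, and 0.200 in tumour 3 (0.0213 to 0.939) and 0.550 in tumour 5 (0.395 to 0.758), below every gland. A ratio lower in all 6 tumours than in all 4 glands was thus seen for Plin1 and not for Adipoq. These intervals cover counting error only.

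Cyp2s1 had a slope of 1.16 ± 0.18 (SE, adjusted p = 0.0117, edgeR). Tumours 1 and 6, the highest in Cyp2s1, are also the highest tumours in both the index and the salivary share. Among tumours 2 to 5 the salivary share was 0.0133%, 0.0149%, 0.0439% and 0.00199%. Cyp2s1 was at 0.393, 0.223, 0.121 and 0.781 CPM there. The salivary markers summed to 97.0, 168, 346 and 14.2 CPM in these tumours. Most of each sum was Aqp5, at 72.4, 158, 288 and 9.12 CPM. Aqp5 was also at 52.0 to 68.2 CPM in the glands, so no order is read from these shares. The part of salivary tissue in the Cyp2s1 level was not tested. Gland 4, with an index of 6.98, had the lowest Cyp2s1 level of all libraries. Without tumours 1 and 6 no gene of the whole table passed for the slope, with slopes of 1.04 for Cyp2e1 and 1.28 for Cyp2s1 (adjusted p = 0.205 for each, edgeR) and 8 members at an unadjusted p below 0.05. Over the alternatives the adjusted p of the slope ran from 4.09e-16 to 0.340 for Cyp2e1 and from 2.88e-10 to 0.667 for Cyp2s1.

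The slopes of the other called genes did not pass the test. They were 0.14 ± 0.16 for Cyp3a57, 0.17 ± 0.12 for Cyp2j9, 0.03 ± 0.15 for Cyp4v3 and -0.08 ± 0.23 for Cyp26a1 (SE, adjusted p = 0.695, 0.491, 0.934 and 0.893, edgeR). A slope that misses the threshold is not shown to be 0. A slope that differed between glands and tumours, a term added after the data were seen, passed in 0 of 20101 genes, with 2341 genes and 2 members (Cyp4v3 and Cyp2u1) at an unadjusted p below 0.05 (edgeR).

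Other cell types moved with the index. It was matched by a called slope in 10 of 13 adipocyte markers (Adipoq and Plin1 included), 4 of 10 fibroblast markers, 3 of 10 macrophage markers and 0 of 10 luminal markers. All 13 adipocyte markers fell in tumours, with summed levels of 8247 to 32388 CPM in glands and 36.9 to 1491 CPM in tumours. The part of the other cell types in the P450 slopes was not tested.

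With the index as a covariate, tumours and glands were compared at equal Adipoq and Plin1, whose range did not overlap between the groups, so the fit extends beyond the data of each. In that fit 1 of the 27 members passed (Cyp2s1, log2 fold change 9.86, adjusted p = 0.0263), where 0.483% of genes did. The value for Cyp2e1 moved from -8.32 to -2.29 ± 1.05 (SE, adjusted p = 0.377, edgeR). Over the alternatives to the main comparison, this fit among them, the adjusted p of Cyp2e1 ran from 6.39e-11 (DESeq2) to 0.377. The value moved less for Cyp3a57 (-3.97, adjusted p = 0.320), Cyp4v3 (-2.01, adjusted p = 0.635) and Cyp26a1 (8.80, adjusted p = 0.195). For Cyp2j9 it was -1.03 (adjusted p = 0.770, edgeR).

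**Figure D4:**
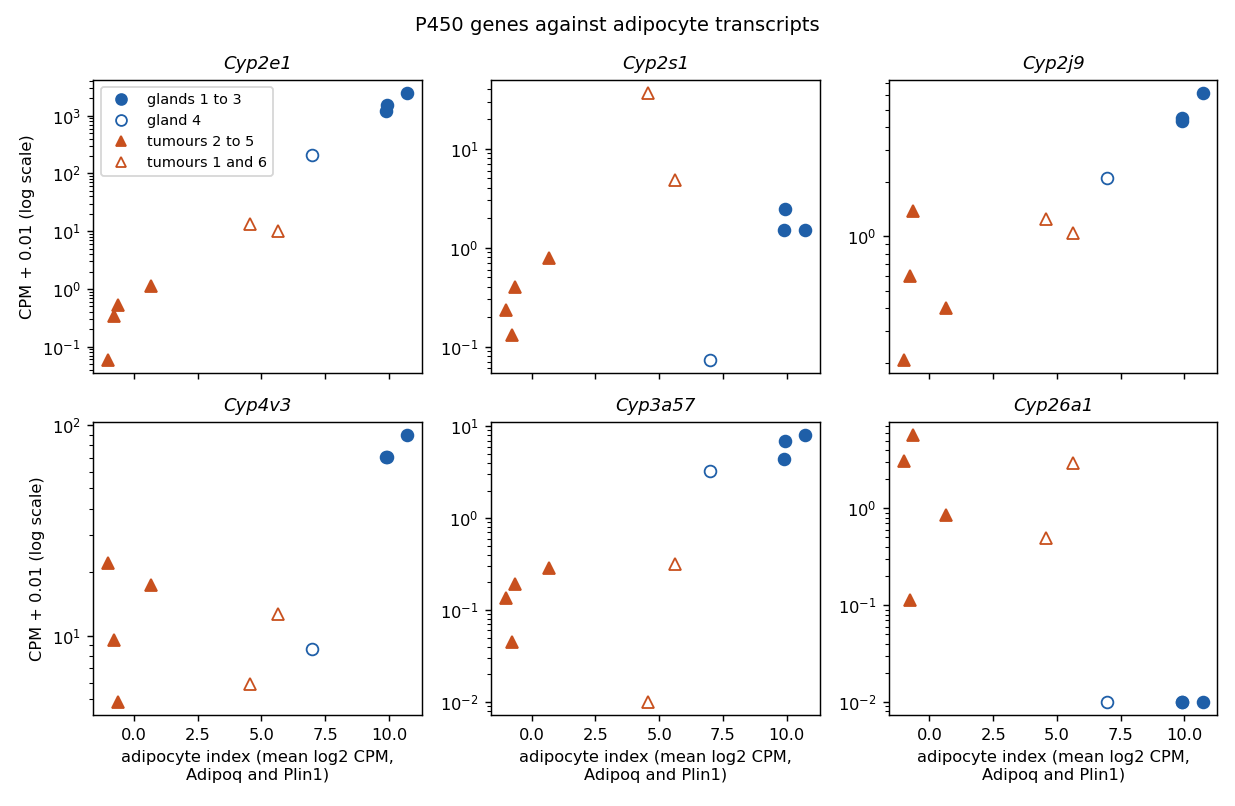
CPM plus 0.01 on a log axis (y axis) against the adipocyte index (x axis, mean log2 CPM of Adipoq and Plin1) for the 6 P450 genes called in either fit, with 1 point per library. Cyp2e1 rises with the index in glands and tumours alike, while Cyp4v3, Cyp3a57 and Cyp26a1 show no such rise among the tumours.

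Among the 6 tumours alone, Cyp2e1 had a Pearson r of 0.94 with the index (exact permutation p = 0.00417, 720 orders) and a Spearman rho of 0.94 (exact permutation p = 0.0167). After adjustment over 20100 genes the Pearson p was 0.340 and the Spearman p 0.256. Without tumours 1 and 6, the 2 farthest from the median index, r was 0.81 over 4 tumours. Cyp2s1 had r = 0.90 (exact permutation p = 0.0292, adjusted 0.441) and 0.83 without those 2, and rho = 0.89 (exact permutation p = 0.0333, adjusted 0.260). Of the 27 members, 20 had an r above 0, where 53.7% of genes did. In all, 3 of 27 members (Cyp2e1, Cyp2s1 and the low-level Cyp2ab1) had a Pearson p below 0.05, where 10.9% of genes did. By Spearman's rho 7 of 27 did (these 3, Cyp2f2 and, below 1 CPM and named after their values were seen, Cyp11a1, Cyp24a1 and Cyp4f39), where 12.9% of genes did. None passed after adjustment by either measure (exact permutation tests). Since tumours 1 and 6 form a cluster of their own, an r over all 6 rests largely on the gap between them and the other 4.

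The remaining 47 members were not tested, and 16 of them had no count in any gland. Their total counts over all libraries ran from 2 to 8952 with a median of 22, and 21 stayed below 10 counts in every library. Tumour 1 was the highest library for 14 of the 47. Cyp2a5, a coumarin hydroxylase known from liver and olfactory tissue and named here after its values were seen, was at 165 CPM (8888 counts) in tumour 5, at 0 to 0.780 CPM in the other tumours and at 0 in the glands. Of its 31-base words 54.6% occur in other genes, 44.9% in Cyp2a4, so its counts depend on how shared reads were divided. Tumour 5 was also the library with the highest sum of basal epithelial markers, 4428 CPM against 111 to 1168 CPM in the other tumours. Most of this sum came from the keratins Krt14 (1857 CPM), Krt5 (1222 CPM) and Krt17 (1181 CPM). Among the tumours, Trp63 (105 CPM) and Myh11 (23.9 CPM) were also highest in tumour 5. Oxtr (0.726 CPM) was lowest there, and Acta2 and Cnn1 were highest in tumour 6. The sum is thus mainly a keratin level, and the part of basal cells in the Cyp2a5 level was not tested. The other members above 100 counts in a library were Cyp4f15, a fatty acid hydroxylase with 220 counts in tumour 5, and the steroid hydroxylase Cyp21a1 with 106 counts in tumour 2.

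Of 10 genes listed around the electron supply of P450 enzymes, 4 fell and 0 rose, where 8.19% of all genes fell and 6.89% rose. Their median log2 fold change was -0.92. Beside electron carriers the list holds Pgrmc1, Pgrmc2 and the NAD kinase Nadk. The ferredoxins Fdx1 (-0.23) and Fdx2 (-0.33) and their reductase Fdxr (-0.90) did not pass the test (log2 fold change, edgeR). Por, the reductase that serves the microsomal P450 enzymes, was at 306, 165, 144 and 40.2 CPM in the glands and 7.77 to 29.3 CPM in the tumours. No tumour reached the lowest gland, and Por fell by 3.34 ± 0.51 on the log2 scale (SE, adjusted p = 0.00426, edgeR). Cyb5a, a cytochrome b partner of many P450 enzymes, fell by 1.89 ± 0.45, its mitochondrial relative Cyb5b by 1.50 ± 0.33 and the haem-binding Pgrmc2 by 1.26 ± 0.33 (SE, adjusted p = 0.0219, 0.0163 and 0.0292, edgeR). None of the 10 had a slope on the adipocyte index that passed the test, with adjusted p = 0.237 for Por.

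Other lists around P450 function are given by their counts, where 6.89% of all genes rose and 8.19% fell. Of 12 other drug-metabolising enzymes, 5 fell and 0 rose, and the smallest adjusted p were those of the aldehyde oxidase Aox1 (-4.58 ± 0.68) and the flavin monooxygenases Fmo5 (-2.61 ± 0.39) and Fmo1 (-2.11 ± 0.35; log2 fold change, SE, adjusted p = 0.00397, 0.00422 and 0.00592, edgeR). Of 10 eicosanoid enzymes outside the P450 family, 2 fell: Ephx2, which hydrolyses the epoxides made by Cyp2j enzymes (-4.62 ± 0.98, adjusted p = 0.0138), and the leukotriene synthase Ltc4s (-2.34 ± 0.71, adjusted p = 0.0476). Of 7 tested nuclear receptors that control P450 genes, the sterol receptor Nr1h3 (-3.19 ± 0.46, adjusted p = 0.00374) and the fat cell regulator Pparg (-5.19 ± 1.04, adjusted p = 0.0112) fell. Pparg is also 1 of the adipocyte markers.

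Vitamin D and steroid genes moved both ways, with 3 higher and 2 lower of 9 tested. The vitamin D receptor Vdr averaged 4.40 ± 1.45 CPM in the 4 glands and 34.7 ± 22.2 CPM in the 6 tumours (SD) and rose by 2.98 ± 0.57 on the log2 scale (SE, adjusted p = 0.00996, edgeR). Cyp24a1, the enzyme that inactivates vitamin D and a target of Vdr, was at 0.0468 to 0.171 CPM in the glands and 0 to 1.06 CPM in the tumours, and it did not pass the test (adjusted p = 0.181, edgeR). The steroid reductase Srd5a1 rose by 3.66 ± 0.68, while the partner receptor Rxra fell by 1.47 ± 0.35 and the glucocorticoid-activating Hsd11b1 by 1.57 ± 0.47 (log2, SE, adjusted p = 0.00903, 0.0219 and 0.0466, edgeR). The third gene that rose was Hsd17b2, at a mean of 0.0039 CPM in the glands and 0.531 CPM in the tumours. Hsd17b2 passed the filter on low counts only through the tumours in which it was high, so its call is no independent support.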

How the data were processed

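PolyA RNA of whole tissue was sequenced after TRIzol extraction, per the labels' protocols. The authors deposited whole-number counts per gene symbol, unscaled, in 1 table of 38279 symbols. Salmon 1.2.0, DESeq and mm9 are named in the submitters' processing notes with no role, and the way counts were assigned to genes is not stated there. If shared reads were divided by a model, near-identical P450 genes are uncertain. Nothing says outright that libraries came from separate animals, so p-values measure the spread between libraries.

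Counts were filtered (filterByExpr, 20101 genes kept), TMM-scaled and tested with edgeR 4.0.16 (R 4.3.3, quasi-likelihood test, two-sided, Benjamini-Hochberg over all genes, threshold 0.05), checked on simulated data. Standard errors were taken from the log2 fold change and its F statistic. Log values have a prior count of 1. Members with full values are those called in either fit and the 10 with the highest mean CPM among the 23 well-measured ones. From the pathway lists, called genes with the smallest adjusted p were named, and some list genes are not reported here. Members and lists were chosen with earlier results of these data known, and 1 list symbol (Dbp, a transcription factor wrongly listed as a vitamin D carrier) was removed after the files were seen. Alternatives were DESeq2 1.42.0, limma-voom (limma 3.58.1), upper-quartile or RLE scaling, other filters, age, other indices and left-out libraries. Shared words were counted in GENCODE transcripts and promoters read from RefSeq, both of another build than the one named.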

Additional observations from a re-analysis of the deposited data

Results flagged for a closer look

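In 27 groups of libraries (14 P450 genes with full values, glands and tumours, without the glands of Cyp26a1, all at 0), 2 had a library far from the others by Dixon's test, which chance flags in about 1 in 20 groups. Cyp2s1 was at 36.5 CPM in tumour 1, against 0.121 to 4.82 CPM in the other tumours. Cyp4b1 was at 20.0 CPM in gland 1, against 12.8 to 14.0 CPM in the other glands. Cyp2a5, looked at because its value had been seen and so outside these counts, was at 165 CPM in tumour 5, against 0 to 0.780 CPM in the other tumours, and 44.9% of its 31-base words also occur in Cyp2a4.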

How the results depend on the processing

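The count of called members (5) rose to 10 with DESeq2 and to 13 without tumours 1 and 6 and gland 4, and fell to 1 with the adipocyte index as a covariate, while the genes called in the whole table went from 3030 to 5617, 4640 and 97. Against gland 4 alone, a choice added after the data were seen, it was 0 (edgeR, 3 at an unadjusted p below 0.05, 330 of all genes), but with 1 gland, assumed to vary like the tumours, a lost call says nothing on stability. Leaving out 1 library gave 3 to 8. The count of members with a called slope (2) was 7 with DESeq2 and 4 with limma-voom, where the whole table went from 393 to 1717 and 615. It was 0 without tumours 1 and 6 (8 at an unadjusted p below 0.05), 0 also without gland 4 (5) and 0 in tumours only (1), all edgeR, where Cyp2e1 and Cyp2s1 had too few counts to be fitted. Leaving out 1 library gave 2 to 3. The cause of these shifts was not tested. Upper-quartile scaling raised the median log2 fold change of all genes by 0.16 and gave 1809 higher and 1313 lower genes, against 1384 and 1646, with 5 members called as before.

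Log2 fold changes of members that missed the threshold changed sign as follows. Cyp2j6 was 0.025 with upper-quartile scaling, 0.10 with age, 1.21 with the index and 0.62 against gland 4 alone, and leaving out 1 library gave -0.59 to 0.021. Cyp2f2 was 0.87 with age, 5.18 with the index and 6.82 against gland 4 alone. Cyp2s1 was -0.23 with limma-voom, -1.88 without tumours 1 and 6 and -2.37 also without gland 4, with -0.16 to 2.76 on leaving out 1 library. Cyp1b1 was -0.017 with limma-voom and -0.063 with the index, which also gave 0.50 for Cyp27a1 and -0.40 for Cyp39a1. Cyp20a1 was -0.062 without tumours 1 and 6 and gland 4, with -0.054 to 0.38 on leaving out 1 library. Among called members, Cyp4v3 was 0.58 against gland 4 alone. The uncalled slope of Cyp4v3 was -0.10 in tumours only and -0.068 to 0.15 on leaving out 1 library, and that of Cyp26a1 was 0.042 with limma-voom and -0.15 to 0.011 on leaving out 1 library. The slope of Cyp2s1 also missed the threshold with age as a covariate (adjusted p = 0.0570, edgeR).

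No paired analysis was possible because the labels give the groups no shared replicate numbers. The 13723065 counts of gland 3 and the salivary share of tumour 1 limit the depth for low members, and 21 of 74 stayed below 10 counts in every library.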
